A study of Homo sapiens with 12 samples.

Results

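The genes described here are 10 immediate-early genes of the EGR, IER and KLF families, *EGR1*, *EGR2*, *EGR3*, *IER2*, *IER3*, *IER5*, *KLF2*, *KLF4*, *KLF6* and *KLF10*. They were chosen by gene family and symbol, with earlier results of these data known, and all 10 are among the 43236 gene symbols counted. Other genes of these families, described further below, are not among them. Their mRNA was measured by RNA sequencing in MNNG/HOS cells (HOS-MNNG in the labels), a human osteosarcoma cell line that comes from HOS cells transformed with a chemical carcinogen. Cells were given the solvent DMSO or 300 nM of NXP800, an orally available small molecule, for 6 h or 24 h, with 3 libraries in each of the 4 groups and a DMSO group of its own at each time. Libraries held 30810614 to 31947656 counts in genes. All libraries come from the same line, and the labels name no genetic change made to it. Nothing in the labels says that replicates are separate cultures, so p-values measure the spread between these libraries, which may be technical.

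Immediate-early genes are transcribed within minutes of a growth factor, cytokine or stress signal, without the need for newly made protein, and their mRNAs are usually short-lived. EGR proteins are zinc finger transcription factors that bind GC-rich sites, and KLF proteins are a related zinc finger family that binds GC and CACC boxes. IER proteins share a naming by fast induction rather than a common fold: IER2 is nuclear, IER3 modulates apoptosis and IER5 takes part in the heat shock response. In bone, *EGR2* and *KLF10* are known from osteoblasts, the cell type that osteosarcoma resembles.

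Growth factor signals reach *EGR1* and *EGR2* through serum response factor, which binds the CArG box (CC, a run of A or T, then GG), while *KLF2* is known to be driven by MEF2 factors. The stretches upstream of the start sites of 4 genes are shown because they hold these sites or belong to the gene with the largest change. They are RefSeq sequence of GRCh38.p14, printed 5′ to 3′ on the strand of the gene up to the base before the start site, with CArG boxes, the MEF2 site and the letters TGACG of a short CRE (CGTCA on the other strand) in capitals.
EGR1 chr5:138465309-138465478, + strand: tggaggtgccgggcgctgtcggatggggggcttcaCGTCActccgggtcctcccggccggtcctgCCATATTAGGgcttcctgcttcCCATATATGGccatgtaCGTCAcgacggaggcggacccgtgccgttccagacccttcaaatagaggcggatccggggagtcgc
EGR2 chr10:62816367-62816536, - strand: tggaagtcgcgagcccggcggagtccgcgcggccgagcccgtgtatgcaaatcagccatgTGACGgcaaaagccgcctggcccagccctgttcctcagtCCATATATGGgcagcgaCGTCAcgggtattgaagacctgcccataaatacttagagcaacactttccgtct
KLF2 chr19:16324656-16324825, + strand: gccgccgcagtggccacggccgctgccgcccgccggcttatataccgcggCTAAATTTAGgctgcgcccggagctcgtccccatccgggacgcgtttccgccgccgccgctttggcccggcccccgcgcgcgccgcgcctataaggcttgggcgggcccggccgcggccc
KLF4 chr9:107489770-107490019, - strand: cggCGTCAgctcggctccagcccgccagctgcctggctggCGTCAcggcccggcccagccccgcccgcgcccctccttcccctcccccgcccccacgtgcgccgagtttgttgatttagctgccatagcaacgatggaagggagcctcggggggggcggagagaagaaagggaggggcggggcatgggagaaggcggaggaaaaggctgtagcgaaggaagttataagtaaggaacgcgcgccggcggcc

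*EGR1* held a pair of CArG boxes, CCATATTAGG beginning 105 bases and CCATATATGG beginning 83 bases upstream of its start. *EGR2* held the box CCATATATGG, beginning 71 bases upstream of its start at position 62816366 of chromosome 10. A CArG box was found in 1.29% of the 35116 promoters of the same 300-base length in the table. The MEF2 site CTAAATTTAG began 120 bases upstream of *KLF2*, and a MEF2 site was found in 0.572% of promoters. RefSeq promoters were found for 7 of the 10 genes, *EGR2* with 3 start sites, and *IER3*, *EGR3* and *KLF10* had no entry in the table used. The short CRE TGACG stood in 4 of the 7, *EGR1*, *EGR2*, *KLF4* and *IER2*, against 24.6% of all promoters, and the full site TGACGTCA in 0 of 7 against 1.85%. The GC box GGGCGGGG stood in 4 of 7, against 22.8%. The EGR site GCGTGGGCG stood in 0 of 7 (0.795% of promoters), and its variant GCGGGGGCG in *KLF6* and *KLF2* (5.07%); in *KLF2* this match overlaps GC box matches. The letters TGATGNAA stood in 0 of 7, against 3.62%. A gene was counted if any of its promoters held a match, whereas the percentages are of single promoters, so *EGR2* had 3 chances. All motifs were searched on both strands, and a match is a description of the letters only.

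**Figure D1:**
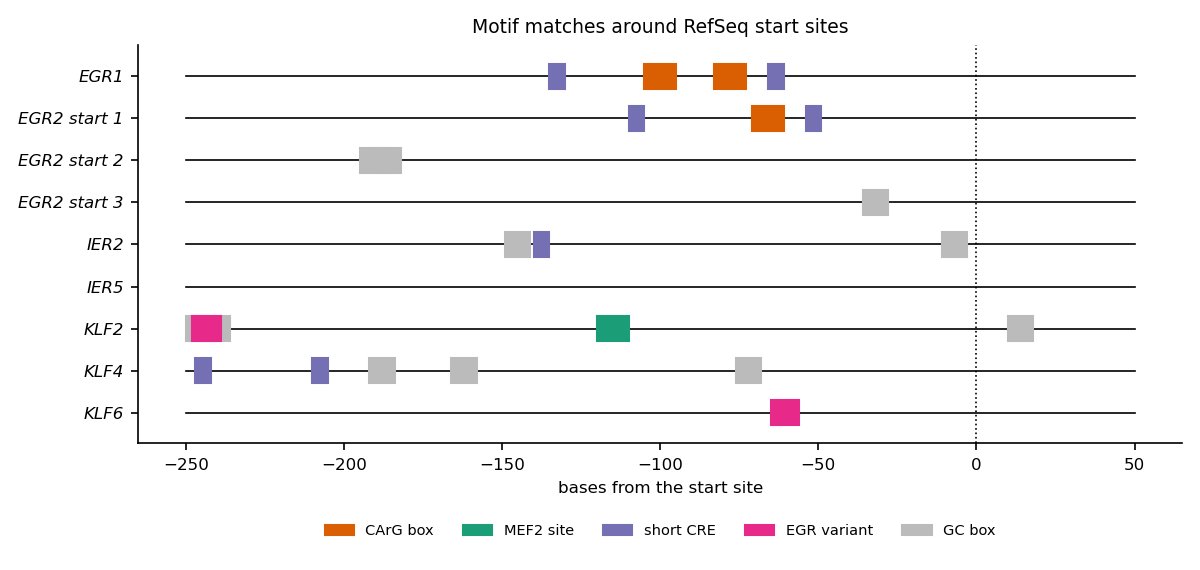
Motif matches in 9 RefSeq promoters of 7 genes; the x axis gives bases from the start site (dotted line) and each coloured box is a match on either strand. CArG boxes lie only upstream of *EGR1* and of the first *EGR2* start drawn, the MEF2 site only upstream of *KLF2*.

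All 10 genes had enough counts to be tested at both times. After 6 h of NXP800, 8 of 10 were higher than in DMSO, 1 (*KLF2*) was lower and 1 (*EGR3*) did not pass the test, by edgeR's quasi-likelihood test at a Benjamini-Hochberg adjusted p below 0.05 over 15979 genes. Of all genes tested, 52.8% passed at 6 h, 25.0% higher and 27.8% lower. The median log2 fold change of the 10 genes at 6 h was 1.01, against -0.05 over all genes tested. After 24 h, 3 of 10 were higher (*IER2*, *KLF4* and *KLF10*), 2 lower (*EGR3* and *KLF2*) and 5 passed in neither direction, where 56.0% of all genes passed, 27.5% higher and 28.6% lower. The median was then 0.26, against -0.003 over all genes. In CPM (counts scaled to library size and TMM factors), the NXP800 and DMSO libraries did not overlap for 7 of 10 genes at 6 h, all higher, and for 5 of 10 at 24 h, 3 higher and 2 lower. Among all genes tested 62.0% did not overlap at 6 h and 59.1% at 24 h.

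**Figure D2:**
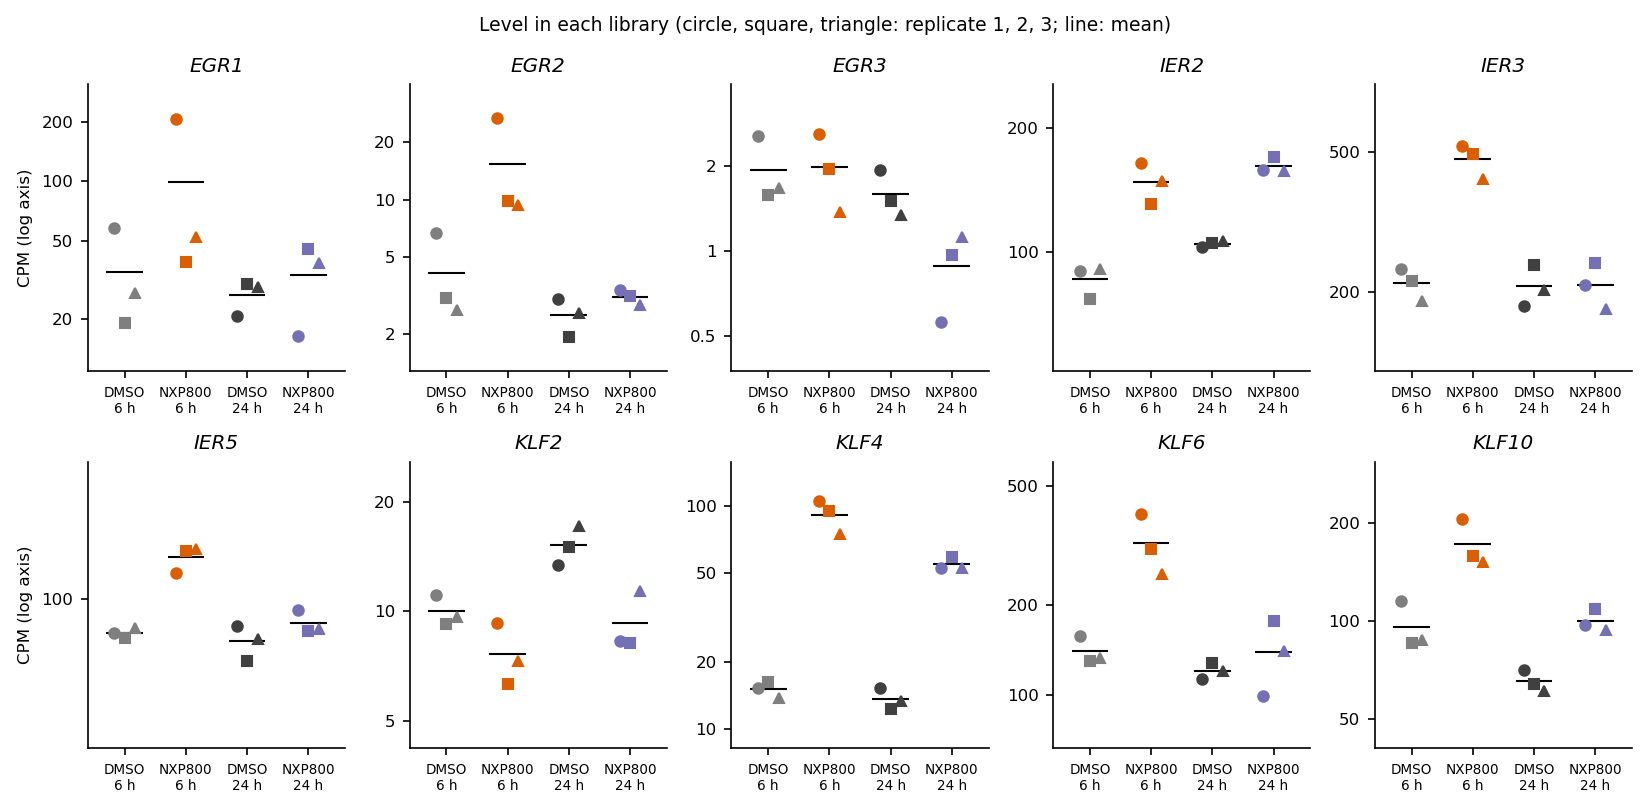
Level of each gene in every library, in CPM on a log axis, by group, with the replicates as circles, squares and triangles and the group mean as a line. *KLF4* was at 74.7 to 105 CPM with NXP800 at 6 h against 13.8 to 16.3 with DMSO, while the *EGR1* groups overlap.

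The EGR genes had the widest spread between replicates. *EGR1*, the founding member of the family, had 1838, 608 and 900 counts in DMSO at 6 h and 6725, 1275 and 1698 with NXP800. The highest DMSO library lay above both lower NXP800 libraries, so the groups overlap, and replicate 1 was the highest of its group in both. The log2 fold change was 1.51 (SE 0.51, adjusted p = 0.0213 by edgeR, 95% interval 0.42 to 2.60), and within replicate numbers NXP800 was higher in all 3 pairs, by 3.55, 2.04 and 1.91 times. With the replicate number as a block the log2 fold change was 1.31 and the adjusted p by edgeR 3.41e-07. Without the block, the call rests on few libraries. Leaving out NXP800 replicate 1 but keeping DMSO replicate 1 gave a log2 fold change of 0.39 (edgeR adjusted p = 0.443). Without DMSO replicate 2 or 3 the adjusted p was 0.0923 or 0.0691. With both 6 h libraries of replicate 1 left out the log2 fold change was 0.97 (edgeR adjusted p = 0.0339). The robust prior of edgeR, which shrinks the spread of highly variable genes less, gave an adjusted p of 0.112.

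At 24 h *EGR1* had 619, 899 and 844 counts in DMSO and 496, 1445 and 1210 with NXP800. The lowest and the highest library both belonged to NXP800. The log2 fold change of 0.33 (SE 0.53, 95% interval -0.79 to 1.45) did not pass, with an edgeR adjusted p of 0.616.

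*EGR2*, a regulator of myelination that is also expressed in osteoblasts, had 211, 97 and 88 counts in DMSO at 6 h and 864, 323 and 307 with NXP800. All NXP800 libraries were above all DMSO libraries, and replicate 1 was again the highest of both groups. The log2 fold change was 1.89 (SE 0.36, edgeR adjusted p = 0.000386), a 3.70-fold rise. Without NXP800 replicate 1 it was 1.23 (edgeR adjusted p = 0.00219). At 24 h the counts were 91, 57 and 75 in DMSO and 102, 100 and 88 with NXP800, and the groups overlapped. The log2 fold change of *EGR2* was then 0.30 (SE 0.43, edgeR adjusted p = 0.565).

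*EGR3*, a relative known from muscle spindles and lymphocytes, was the lowest of the 10 genes. At 6 h it had 81, 50 and 55 counts in DMSO and 85, 64 and 45 with NXP800, with a log2 fold change of 0.03 whose 95% interval ran from -0.53 to 0.60 (edgeR adjusted p = 0.923). The groups covered nearly the same range. At 24 h it had 58, 45 and 39 counts in DMSO and 17, 31 and 35 with NXP800, and every NXP800 library was below every DMSO library. Its log2 fold change of *EGR3* was -0.85 (SE 0.31, edgeR adjusted p = 0.0261), and the adjusted p was 0.102 without DMSO replicate 1 and 0.114 without NXP800 replicate 1. In this gene a library holds 17 to 85 counts, so counting error adds to the spread.

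The IER genes were more even. *IER2*, a nuclear protein tied to cell motility, had 2830, 2445 and 2991 counts in DMSO at 6 h and 5353, 4276 and 4850 with NXP800, with no overlap. It rose by a log2 fold change of 0.79 (SE 0.08, edgeR adjusted p = 6.89e-07). At 24 h *IER2* had 3082, 3125 and 3085 counts in DMSO and 4788, 5409 and 4936 with NXP800, again apart, and the log2 fold change was 0.63 (SE 0.08, edgeR adjusted p = 5.9e-06). In GENCODE 52.2% of its exon length overlaps exons of unnamed genes on the opposite strand. The strand setting of the counting is not given in the sources used here, so the part of such genes in the *IER2* counts was not tested.

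*IER3*, a stress-inducible modulator of apoptosis, was the highest of the 10 genes per length of transcript in every group. At 6 h it had 7323, 6820 and 6236 counts in DMSO and 16919, 16198 and 13681 with NXP800. The lowest NXP800 library was far above the highest DMSO library, and the pairs rose by 2.24, 2.30 and 2.22 times. Its log2 fold change was 1.17 (SE 0.12, edgeR adjusted p = 5.2e-07). At 24 h it had 5485, 7109 and 5905 counts in DMSO and 6341, 7712 and 5603 with NXP800, which overlap, and the log2 fold change was 0.01 with a 95% interval of -0.24 to 0.26 (edgeR adjusted p = 0.945). The exons of *IER3* overlap those of *IER3-AS1* and *HCG20* on the opposite strand over 38.9% of their length. *IER3-AS1* had 45 to 95 counts in DMSO and 113 to 151 with NXP800 at 6 h and at most 11 in a library at 24 h, and *HCG20* at most 9.

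*IER5*, a target of heat shock factor 1 that acts back on it, had 2702, 2647 and 2883 counts in DMSO at 6 h and 3675, 4077 and 4102 with NXP800. The groups were apart, and its rise was the smallest of the 8, with a log2 fold change of 0.50 (SE 0.07, edgeR adjusted p = 1.56e-05). At 24 h *IER5* had 2645, 2235 and 2419 counts in DMSO and 2880, 2755 and 2729 with NXP800. In CPM these overlapped, at 75.1 to 88.4 and 86.3 to 95.1. Its log2 fold change was 0.12 (SE 0.07, edgeR adjusted p = 0.147), and with the replicate block the adjusted p was 0.0399.

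*KLF4*, one of the reprogramming factors of pluripotency and a cell cycle inhibitor in epithelia, changed most of the 10 genes at both times. It had 484, 516 and 453 counts in DMSO at 6 h and 3413, 3084 and 2435 with NXP800. Each NXP800 library was several times above each DMSO library. Its log2 fold change was 2.59 (SE 0.12, edgeR adjusted p = 1.05e-10), a 6.04-fold rise. At 24 h it had 459, 365 and 391 counts in DMSO and 1596, 1888 and 1654 with NXP800, a 4.01-fold rise with a log2 fold change of 2.00 (SE 0.12, edgeR adjusted p = 1.06e-09).

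*KLF6*, a widely expressed factor described as a tumour suppressor, had 4963, 4134 and 4385 counts in DMSO at 6 h and 13058, 10062 and 8259 with NXP800. The groups were apart and the log2 fold change was 1.19 (SE 0.17, edgeR adjusted p = 2.07e-05). At 24 h *KLF6* had 3366, 3796 and 3487 counts in DMSO and 3005, 5611 and 4381 with NXP800, whose replicates lay on both sides of the DMSO libraries. Its log2 fold change was 0.21 (SE 0.17, edgeR adjusted p = 0.316), and without NXP800 replicate 1, the lowest, it was 0.40 (edgeR adjusted p = 0.0346).

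*KLF10*, also called TIEG and known as an early target of TGF-beta in osteoblasts, had 3627, 2723 and 2874 counts in DMSO at 6 h and 6687, 5161 and 4969 with NXP800, with no overlap. On the log2 scale the change was 0.84 (SE 0.12, edgeR adjusted p = 1.93e-05), and the pairs rose by 1.79, 1.84 and 1.75 times. At 24 h *KLF10* had 2123, 1912 and 1779 counts in DMSO and 2942, 3484 and 2950 with NXP800, again apart, with a log2 fold change of 0.61 (SE 0.12, edgeR adjusted p = 0.000382).

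*KLF2*, a factor of quiescent endothelium and T cells, was the only member lower with NXP800 at both times. It had 350, 294 and 318 counts in DMSO at 6 h and 303, 206 and 238 with NXP800, and the highest NXP800 library lay within the DMSO range. On the log2 scale the change of -0.39 (SE 0.16, edgeR adjusted p = 0.0466) was close to the threshold. It no longer passed without any single one of the DMSO 6 h libraries (edgeR adjusted p 0.163, 0.0531 and 0.0662 for replicates 1, 2 and 3), NXP800 6 h replicate 2 or 3 (0.204 and 0.116), or replicate 2 of either 24 h group (0.0545 for DMSO, 0.0623 for NXP800). With the replicate block and all libraries kept, the edgeR adjusted p at 6 h was 0.00099. At 24 h *KLF2* had 401, 447 and 500 counts in DMSO and 251, 261 and 359 with NXP800, which do not overlap. On the log2 scale the change was then -0.71 (SE 0.15, edgeR adjusted p = 0.000894).

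**Figure D3:**
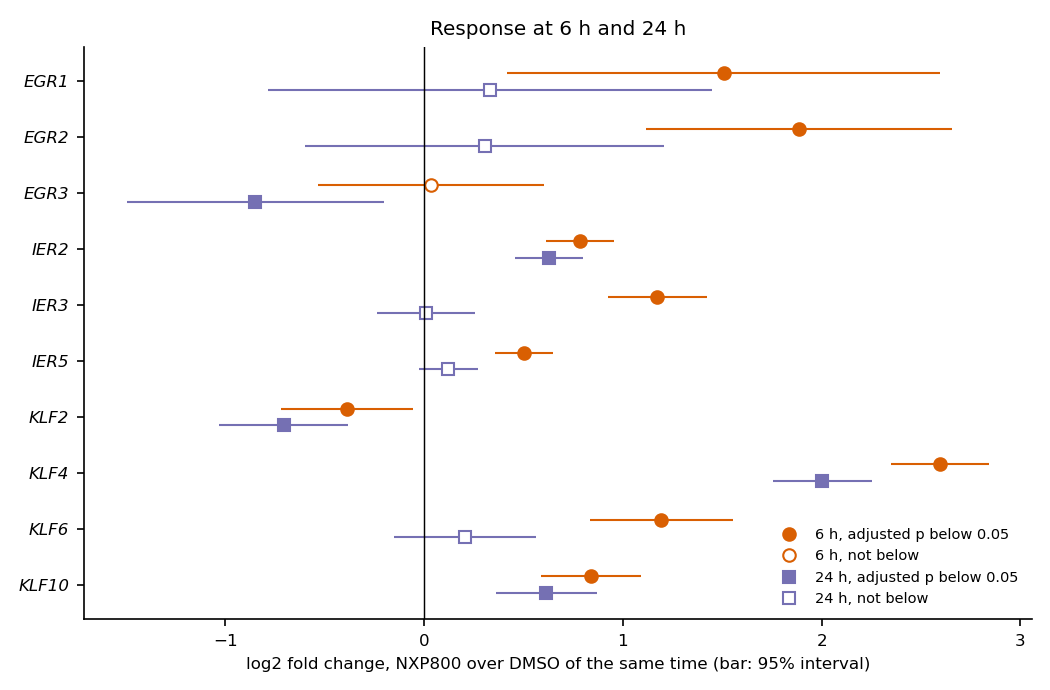
Log2 fold change of NXP800 over DMSO at 6 h (circles) and 24 h (squares) with 95% intervals from edgeR; filled symbols passed the adjusted p of 0.05. The 6 h values of *IER3*, *KLF6* and *EGR2* lie at 1.17, 1.19 and 1.89, and their 24 h values at 0.01, 0.21 and 0.30.

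The 6 h and 24 h responses were compared by their difference in the same model. For 5 of 10 genes the response at 24 h was lower than at 6 h, for 0 it was higher, where 25.9% of all genes passed, 1925 of 15979 higher and 13.8% lower. The difference was -1.16 (SE 0.16, edgeR adjusted p = 1e-04) for *IER3*, -0.99 (SE 0.24, edgeR adjusted p = 0.00626) for *KLF6*, -0.38 (SE 0.10, edgeR adjusted p = 0.00969) for *IER5*, -0.59 (SE 0.16, edgeR adjusted p = 0.0138) for *KLF4* and -1.58 (SE 0.56, edgeR adjusted p = 0.0482) for *EGR2*. The *EGR2* difference did not pass without any single one of 9 of the 12 libraries (all but DMSO 6 h replicate 1 and NXP800 6 h replicates 2 and 3), with an edgeR adjusted p of up to 0.123, and was -0.92 without NXP800 6 h replicate 1. The *KLF4* difference had an edgeR adjusted p of 0.0693 with both 6 h libraries of replicate 1 left out. The difference did not pass for *EGR1* at -1.18 (95% interval -2.73 to 0.38), *EGR3* at -0.88 (-1.74 to -0.02), *IER2* at -0.16 (-0.40 to 0.08), *KLF2* at -0.32 (-0.78 to 0.14) and *KLF10* at -0.23 (-0.58 to 0.13). With the replicate block 8 differences passed, among them *EGR1* (edgeR adjusted p = 0.000656), *EGR2* (3.27e-06), *EGR3* (0.0391) and *KLF10* (0.0266). The times also differ in the libraries: read pairs on no annotated gene were 6.66 to 8.14% at 6 h and 2.73 to 3.67% at 24 h. The part of this in the differences was not tested.

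Levels between genes were compared as CPM per kilobase of GENCODE transcript. In DMSO at 6 h the order of mean levels was *IER3* (171 CPM per kilobase, SD 17.5), *IER2* (40.7), *KLF10* (32.9), *KLF6* (30.5), *IER5* (20.4), *EGR1* (11.1), *KLF4* (5.15), *KLF2* (3.55), *EGR2* (1.39) and *EGR3* (0.43, SD 0.12). The replicates of *IER2* and *KLF10*, and of *KLF10* and *KLF6*, overlapped, and the other neighbours did not. With NXP800 at 6 h *KLF4* was at 31.1 (SD 5.23), between *EGR1* at 31.6 (SD 29.6) and *IER5* at 28.9 (SD 1.72), and its replicates overlapped those of both. At 24 h *KLF4* was at 4.65 CPM per kilobase in DMSO and 18.7 with NXP800, and the top level stayed that of *IER3*, at 168 and 170.

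Replicate 1 at 6 h stood apart for these genes. In DMSO 10 of 10 members were above the mean of their group in this library and in NXP800 9 of 10, with median deviations of 0.16 and 0.28 on the log2 scale. Over all genes the median deviation of the same libraries was 0.01 and 0.00. *EGR1* deviated by 0.90 and 1.46 and *EGR2* by 0.81 and 0.97 there. At 24 h no library had more than 8 of 10 members above its mean. The dispersion of *EGR1* was higher than that of 99.8% of genes tested, *EGR2* stood at 98.3% and *EGR3* at 92.4%, whereas *IER5* stood at 16.2%. With both 6 h libraries of replicate 1 left out, 8 members were still higher and 1 lower at 6 h, where the replicates that remain are 2 per group.

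**Figure D4:**
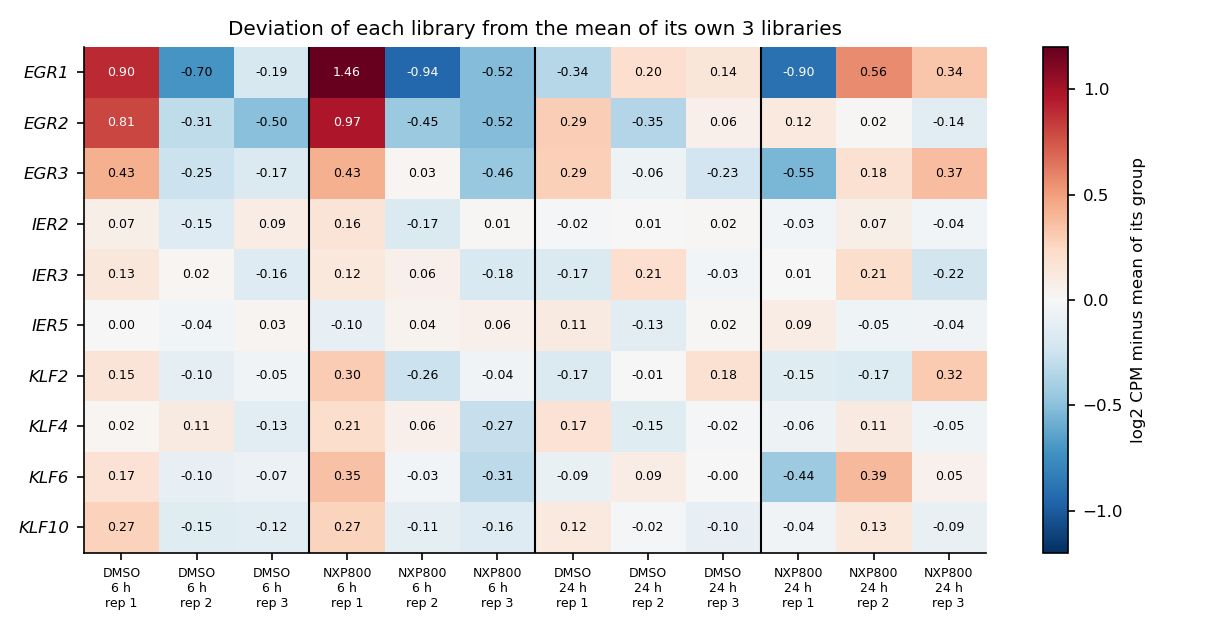
Deviation of log2 CPM from the mean of the library's own group for 10 genes in 12 libraries; red is above and blue below that mean. Both 6 h libraries of replicate 1 are red in the rows of *EGR1* (0.90 and 1.46) and *EGR2* (0.81 and 0.97).

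Across the 12 libraries, the gene with the most similar log2 CPM among the 9581 more abundant genes (mean log2 CPM from 3 up) is given as a description, since the points share groups. For *KLF4* it was *CEBPG* (Pearson r 0.996), for *IER3* *ELL2* (0.985), for *KLF10* *ENAH* (0.985), for *KLF2* *TBRG4* (0.981), for *IER2* *ECPAS* (0.978) and for *IER5* *HIC1* (0.976). It was *GLIS3* for *KLF6* (0.964), *TBX3* for *EGR2* (0.963) and *AQR* for *EGR3* (0.923). *EGR1* had the lowest value, 0.865, with *FAM214A*.

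Of 15 other genes of the same families 11 had enough counts to be tested, and 8 were higher and 1 lower at each time. That is 81.8% called, where 52.8% of all genes passed at 6 h and 56.0% at 24 h. The medians of these 11, on the log2 scale, were 0.92 and 0.94. The largest rises at 6 h were those of *KLF5*, *KLF9* and *KLF14*, at 1.43, 1.24 and 1.22, and the fall was that of *IER5L* at -0.69. At 24 h they were those of *KLF13* (1.56), *KLF15* (1.45) and *KLF11* (1.28), and *KLF12* fell at -0.75. The response at 24 h was higher than at 6 h for 3 of the 11 and lower for 3, where 25.9% of all genes differed, 13.8% lower.

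Of 30 other immediate-early genes 29 were tested. *ZFP36* had 0 counts in every library, and why was not tested. Of the 29, 19 were higher and 2 lower at 6 h, with a median log2 fold change of 1.03. At 24 h 17 were higher and 3 lower, with a median of 0.35. The share called was 72.4% at 6 h and 69.0% at 24 h, against 52.8% and 56.0% of all genes. The response was lower at 24 h than at 6 h for 14 and higher for 2, where 25.9% of all genes differed, 13.8% lower. *ATF3*, a stress-induced bZIP factor, rose by 3.71 at 6 h and 2.41 at 24 h on the log2 scale. *MAFF* and *MYC* followed at 6 h with 2.39 and 2.36, and *ARC* (1.82) and *MYC* (1.44) at 24 h. *CCN2*, a matricellular protein gene, fell at both times, with log2 fold changes of -1.05 and -1.84. *SRF*, which encodes serum response factor itself, was lower at 6 h (-0.23), and *PLK2* (-0.93) and *CCN1* (-0.79) were lower at 24 h.

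**Figure D5:**
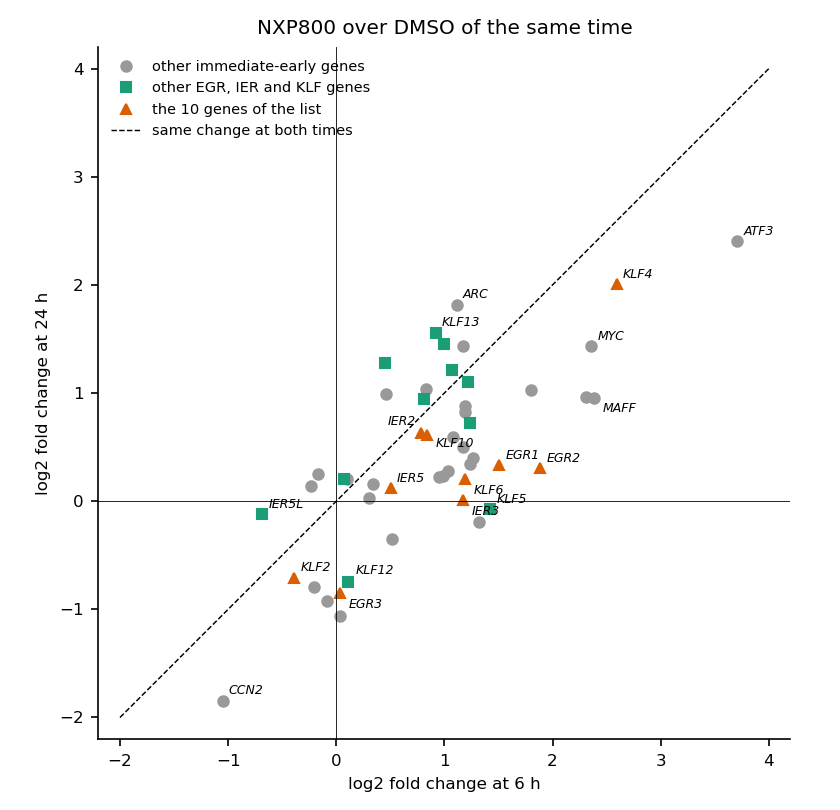
Log2 fold change at 6 h (x axis) and 24 h (y axis) of the 10 genes (triangles), 11 other genes of their families (squares) and 29 other immediate-early genes (circles); the dashed line marks equal change. All 10 triangles lie below the dashed line, and *ATF3* is at the far right at 3.71 and 2.41.

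Genes that act upstream were less uniform. Of 17 regulators, 9 were higher and 4 lower at 6 h, and 7 higher and 5 lower at 24 h. Over all genes tested, 25.0% were higher and 27.8% lower at 6 h, and 27.5% and 28.6% at 24 h. *MEF2A* rose by 0.71 and 0.78 on the log2 scale, whereas *MEF2C* had log2 fold changes of -0.64 and -1.16. At 6 h the SRF coactivator *MRTFA* (0.68) and the ternary complex factor *ELK3* (0.67) were higher and *MRTFB* (-0.38) and *MAPK14*, which encodes p38 alpha (-0.59), lower. At 24 h *MEF2D* (0.43) and *MAP2K5* (0.41) were higher, and *RPS6KA5* (-0.88) and *MAPK3*, which encodes ERK1 (-0.61), lower. Both EGR corepressors rose at 6 h, *NAB1* by 0.31 and *NAB2* by 0.58, and at 24 h *NAB1* was lower (-0.85) and *NAB2* was at 0.24 (edgeR adjusted p = 0.064).

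Of 10 factors that control decay of short-lived mRNAs 9 were tested, with 3 higher and 3 lower at 6 h and 2 higher and 4 lower at 24 h. These counts are not far from the shares over all genes tested. Those were 25.0% higher and 27.8% lower at 6 h, and 27.5% and 28.6% at 24 h. The factor left out was *ZFP36*, with 0 counts in every library. Whether its mRNA was absent or its reads were not counted was not tested. *ZFP36L1*, which directs decay of AU-rich mRNAs and is itself an immediate-early gene, rose by 1.17 at 6 h and 0.50 at 24 h on the log2 scale, and *ZFP36L2* was lower at 6 h (-0.54). The deadenylase subunits *CNOT6L* and *CNOT8* rose by 0.35 and 0.21 at 6 h, *CNOT8* by 0.16 at 24 h, and *CNOT7* was lower at 6 h (-0.19). *ELAVL1*, which encodes the stabilising factor HuR, was lower at both times (-0.48 and -0.43), and *HNRNPD* (-0.51) and *KHSRP* (-0.41) were lower at 24 h.

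The cells were checked against markers. *VIM* was at 3340 to 5890 CPM, *COL1A1* at 143 to 566 and *RUNX2* at 20.7 to 42.5, while the osteoblast genes *COL1A2*, *SP7* and *ALPL* were near 0. *EPCAM* was at 5.59 to 10.2 CPM and *CD14* reached 3.36, and *CDH1*, *KRT19*, *PTPRC*, *CD3E* and *CDH5* were near 0. In bulk samples a change in the number of cells that hold an mRNA and a change in its amount per cell cannot be told apart.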

How the data were processed

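The data are 12 mRNA libraries of the MNNG/HOS line, from DMSO and NXP800 at 6 h and 24 h. Strand-specific polyA libraries were prepared by BGI Genomics, and the authors deposited raw counts per gene, without normalization. Per the labels and the methods, reads were trimmed with fastp 0.20.1, aligned with STAR 2.7.5a to hg38 and counted with HTSeq 0.12.4 on RefSeq genes of GRCh38.p14; the strand setting and counting mode are not given in the sources used here. Entries that name no gene were left out (2.73 to 8.14% of read pairs on no gene, 2.10 to 2.43% ambiguous, 1.86 to 3.37% aligned to several places).

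Differential expression was computed with edgeR 4.0.16 (R 4.3.3): filterByExpr (15979 of 43236 genes kept), TMM scaling, a single model of the 4 groups, the two-sided quasi-likelihood test and Benjamini-Hochberg adjustment over all tested genes, called below 0.05. DESeq2 1.42.0 was an alternative. Scripts were tested on simulated data. Replicates of a group differed by more than sampling noise (chi-square of 7.36 or more per degree of freedom). Same-numbered NXP800 and DMSO libraries deviated together (r 0.159 to 0.329, against at most 0.058 for other numbers). The numbers were therefore taken to pair libraries within a time, in the ratios of pairs and in the replicate block. The block was an alternative only. The main calls, and the fits that left out libraries, used the model without it. Each library held 30810614 counts or more; counting error adds most to the spread of genes with few counts, such as *EGR3*.

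The members and the gene lists were chosen with earlier results of these data known. Named are all members and, from each list, the 3 largest called rises and falls at each time, and the most similar gene of each member. Exon lengths and overlaps come from GENCODE, and positions and promoters from RefSeq tables of GRCh38.p14; the annotation differs from the one counted on. The stretch upstream of *EGR2* lies in an intron of longer *EGR2* transcripts, except for a few bases of a first exon.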

Additional observations from a re-analysis of the deposited data

Results flagged for a closer look

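Genes whose response to NXP800 at 24 h differed from that at 6 h, by a test of the difference itself, are listed with that difference on the log2 scale. It was -1.58 for *EGR2*, -1.16 for *IER3*, -0.38 for *IER5*, -0.59 for *KLF4* and -0.99 for *KLF6*. In *IER3*, *KLF6*, *EGR2* and *IER5* a rise at 6 h stood against a log2 fold change at 24 h whose 95% interval includes 0. In this order the 24 h intervals were -0.24 to 0.26, -0.15 to 0.56, -0.60 to 1.21 and -0.025 to 0.27. In *KLF4* the rise was present at both times.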

How the results depend on the processing

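The 30 values of the 10 genes (2 times and their difference) were recomputed under 22 alternatives at each time and 21 for the difference, in 650 values. Of these 603 kept direction and side of the threshold, 35 fell short of it, 6 newly passed and 6 changed sign. An alternative that only lowered the threshold to 0.01 used the main fit itself. There any main adjusted p between 0.01 and 0.05 fell short by construction. These were *EGR1* and *KLF2* at 6 h, *EGR3* at 24 h and the *EGR2* and *KLF4* differences, and the counts given here include them. The number of genes with a different response was 5, against 8 with the replicate block and 3 at an adjusted p below 0.01. The sign changes came from leaving out libraries, with log2 fold changes of -0.21 to 0.29 for *EGR3* at 6 h and -0.077 to 0.12 for *IER3* at 24 h, neither of which passed. The replicate block changed the calls of the *EGR1*, *EGR3* and *KLF10* differences and of *IER5* at 24 h and no other call of the 10 genes. With library size as the only scaling *IER5* passed at 24 h (edgeR adjusted p = 0.0133) and the *EGR2* difference did not (0.0621). *KLF2* at 6 h fell short under 11 of 22 alternatives, with an adjusted p of up to 0.204, *EGR1* at 6 h under 6 (up to 0.443), and the *EGR2* difference under 13 of 21 (up to 0.156). The DESeq2 Wald test called neither *EGR1* (adjusted p = 0.0726) nor *KLF2* at 6 h.

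The planned fit without a filter on low counts, of 28071 genes with at least 1 count, was run and is void as a test. Its prior degrees of freedom were infinite, so each gene's own spread was replaced by the trend (for *EGR1* a variance of 0.81 in place of 30.3), which gave *EGR1* at 6 h an adjusted p of 5.36e-68; its log2 fold changes moved by at most 0.02, and its calls are not counted above. A filter of at least 2 counts over all libraries, where the prior was finite, was used in its place and called 9 genes at 6 h, 5 at 24 h and 5 differences. That filter, the robust prior and leaving out both 6 h libraries of replicate 1 were chosen after seeing the data. Depth bears most on *EGR3*, which had 17 to 85 counts per library.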
